A study of Mus musculus with 2 samples.

Results

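The cells described here are Timd4 or Lyve1 positive resident macrophages of the mouse heart, 2823 of the 14099 cell barcodes sequenced. Both mice were wild-type C57BL/6 animals aged 10 to 12 weeks, with no treatment given in the labels, and non-myocytes of their ventricles were sequenced. Each mouse gave 1 library, made with the version of the droplet 3' kit in which every captured RNA molecule carries a unique tag (UMI). Hearts were perfused, the atria were taken off, myocytes were removed by low-speed spins, and live cells were sorted by exclusion of a dead-cell dye. No macrophage marker was used in that sort, and the libraries held 7732 barcodes with 21355383 UMIs in mouse 1 and 6367 barcodes with 15174548 UMIs in mouse 2.

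Members were chosen by their own UMI counts. A barcode needed at least 500 UMIs, at most 10% mitochondrial UMIs and at least 15 UMIs of the complement C1q chains C1qa, C1qb and C1qc together. It could hold at most 3 UMIs of the fibroblast gene Dcn and at most 1 UMI of the endothelial genes Pecam1 and Cdh5 together. Of 3438 and 2577 barcodes past the C1q threshold in mouse 1 and mouse 2, the Dcn limit took out 175 and 70, and the endothelial limit a further 156 and 72. That left 3107 and 2435 C1q macrophages. Members had no UMI of Ccr2, the chemokine receptor of monocyte-derived cells, and at least 2 UMIs of Timd4 and Lyve1 together, which gave 1848 cells in mouse 1 and 975 in mouse 2. They were set against the 637 and 876 C1q macrophages with no UMI of Timd4, Lyve1 or Ccr2, named Timd4/Lyve1-negative below, so that by rule the groups differed only in Timd4 and Lyve1. A further comparison used the 186 and 156 Ccr2-positive C1q macrophages, which had at least 1 Ccr2 UMI and none of Timd4 or Lyve1. The genes of these rules were taken out of every test. The libraries shared 65 barcodes, and 5 of those were member barcodes.

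Tissue-resident macrophages of the heart include a long-lived population seeded before birth that renews itself with little input from blood monocytes. Timd4 encodes a receptor for phosphatidylserine, the lipid that dying cells expose, and Lyve1 encodes a receptor for hyaluronan that is also found on lymphatic endothelium. The same population is known for Folr2, the folate receptor beta, and for Cd163, the scavenger receptor for haemoglobin bound to haptoglobin. Macrophages rich in MHC class II, the molecules that present peptides to helper T cells, and macrophages with Ccr2 are the other classes usually described in the heart.

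Lyve1 carried most of the selection. In mouse 1, 572 members held both genes, 1270 held Lyve1 without Timd4 and 6 held Timd4 without Lyve1; in mouse 2 the counts were 418, 545 and 12. Timd4 was therefore detected in 31.3% of members in mouse 1 and 44.1% in mouse 2, at 125 and 195 CPM, where CPM is a gene's share of the UMIs summed over a cell group, scaled by 10 to the power 6. Lyve1 stood at 1650 and 1273 CPM. The median member held 5 UMIs of both genes together in mouse 1 and 4 in mouse 2, with maxima of 28 and 22. These values chose the cells and are a description only. As a measure of RNA picked up from the suspension, fibroblasts gated by at least 10 Dcn UMIs, no Csf1r UMI and the endothelial limit above held a Timd4 UMI in 0.452% and 0.394% of cells and a Lyve1 UMI in 5.25% and 1.81%. Median depths were 3028 and 2944 UMIs in members, against 2775 and 2491.5 in those fibroblasts. With Csf1r-holding cells kept in that gate, the shares were 2.06% and 1.53% for Timd4 and 9.74% and 4.36% for Lyve1.

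Folr2 and Cd163, the other markers of the label, were read next. The members were chosen with earlier results of these data known, so these levels are no independent check of the label. Whether the cells are resident was not tested. Folr2 was detected in 92.6% and 95.2% of members, against 38.3% and 44.0% of Timd4/Lyve1-negative cells, 13.4% and 21.8% of Ccr2-positive cells, and 6.44% and 5.67% of the gated fibroblasts (11.2% and 8.44% with Csf1r-holding cells kept). Members were deeper than Timd4/Lyve1-negative cells, whose median was 2310 UMIs in mouse 1 and 2309.5 in mouse 2. After thinning every cell to 2000 UMIs, which left out 246 and 138 members and 200 and 302 Timd4/Lyve1-negative cells, Folr2 was still detected in 87.6% and 92.8% of members, against 31.8% and 42.3%. Cd163 was detected in 66.0% and 65.8% of members (57.6% and 55.9% after thinning) and in 38.6% and 42.7% of Timd4/Lyve1-negative cells (34.3% and 38.9%). Gated fibroblasts held a Cd163 UMI in 4.46% and 2.68% of cells, or 7.38% and 4.22% with Csf1r-holding cells kept. Csf1r, the receptor for the macrophage growth factor CSF1, was detected in 87.5% and 90.2% of members and in 81.6% and 81.7% of Timd4/Lyve1-negative cells. Of the 5 lymphatic endothelial markers, which matter because Lyve1 marks those vessels too, members held 60 UMIs in mouse 1 (9.97 CPM) and 37 in mouse 2 (12.3 CPM), with Reln at 0 in mouse 2. In Timd4/Lyve1-negative cells the same list stood at 4.37 and 14.3 CPM. The 4 mast cell markers were at 0 in members of both mice. The 6 cardiomyocyte markers summed to 507 and 184 CPM in members, against 891 and 323 CPM in Timd4/Lyve1-negative cells. Taking out cells with over 1% of their UMIs from these genes (4 and 1 members, 7 and 1 Timd4/Lyve1-negative cells) changed the calls given below little, to 415 higher and 473 lower.

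In mouse 1, members made up 59.5% of C1q macrophages, with an exact 95% interval of 57.7 to 61.2. The share in mouse 2 was 40.0%, with an interval of 38.1 to 42.0, so the mean over the mice was 49.8% ± 13.7 (SD, n = 2). Counting Timd4 and Lyve1 after thinning to 2000 UMIs gave 52.6% and 35.1%, against 63.2% and 45.0% in the same cells before thinning. The Ccr2, C1q, Dcn and endothelial limits were kept at full depth there, so these are not shares of the whole rule at equal depth. The mice thus differed by more than counting error with either count of Timd4 and Lyve1. With 1 library each, the difference was not tested, and it cannot be told apart from dissociation or capture. The share followed the threshold: it was 70.3% and 55.2% with at least 1 UMI of Timd4 and Lyve1, and 49.4% and 29.5% with at least 3.

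Of the members, 314 and 256 lay just inside the threshold with exactly 2 UMIs, while 337 and 370 otherwise like cells lay just outside with 1 UMI. Folr2 stood at 1004 and 1472 CPM just inside and at 862 and 1218 CPM just outside. Cd74, the invariant chain that escorts MHC class II molecules, stood at 12647 and 15995 CPM inside and at 18887 and 19144 CPM outside. Summed levels thus differed only by degree across the threshold. A count of 1 or 2 UMIs can mix cells of differing level, so these sums cannot tell a range from a gap.

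Beyond the threshold the same genes kept moving with the Timd4 and Lyve1 count. From cells with 0 UMIs through 1, 2, 3 to 4, 5 to 9 and 10 or more, Folr2 in mouse 1 stood at 306, 862, 1004, 1294, 1534 and 1783 CPM. In mouse 2 it stood at 470, 1218, 1472, 1787, 2014 and 1901 CPM, the last from 60 cells. Cd74 ran the other way, at 33006, 18887, 12647, 9046, 6321 and 3883 CPM in mouse 1 and 34924, 19144, 15995, 11437, 8682 and 7643 CPM in mouse 2. Cd163 climbed up to the threshold and changed little above it, with 534 to 588 CPM in mouse 1 and 570 to 611 CPM in mouse 2 among members. Igf1, a growth factor, stood at 183 to 213 CPM in members of mouse 1 and 290 to 361 CPM in mouse 2, with no steady order. Deeper cells are more likely to reach a high count, so the steps were repeated in cells of 2000 to 8000 UMIs. There, cells with 10 or more UMIs held Folr2 at 1812 and 1920 CPM, against 281 and 475 CPM in cells with 0, and Cd74 at 3830 and 7858 CPM, against 33816 and 35454 CPM.

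**Figure D1:**
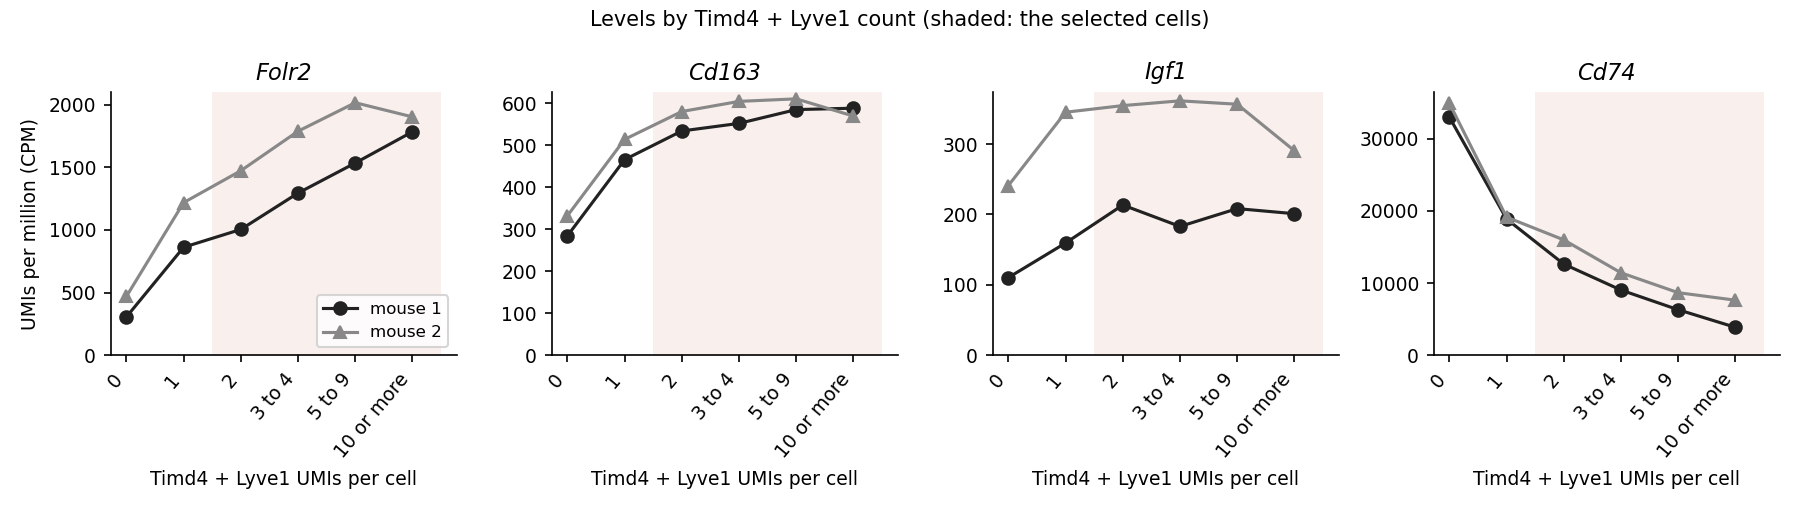
Level of Folr2, Cd163, Igf1 and Cd74 (y axis, CPM) in C1q macrophages without Ccr2, grouped by their Timd4 plus Lyve1 UMI count (x axis), with 1 line per mouse and the selected cells on the shaded ground. Folr2 is higher and Cd74 lower toward high counts in both mice, apart from the last Folr2 point of mouse 2, while Cd163 is nearly level above 2 UMIs.

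UMIs were summed per mouse and cell group and tested with edgeR's quasi-likelihood F test, with mouse as a block. Calls required a log2 fold change of 0.5 or more in size and an adjusted p under 0.05 (Benjamini-Hochberg, across the 9177 genes that entered the test). Over Timd4/Lyve1-negative cells, 412 genes were called higher in members (4.49% of those tested) and 486 lower (5.3%), which together is 9.79%, and the median log2 fold change of all genes was -0.01. The direction was the same in both mice for 412 of the higher and 485 of the lower genes. Both sides came from the same 2 animals, so the p-values measure the spread between 2 paired sums, and with 2 residual degrees of freedom they lean on a spread shared across genes. The counts depended on the tool and the libraries: DESeq2 called 144 higher and 164 lower, and edgeR without the mouse block 48 and 61. Without the Timd4/Lyve1-negative sum of mouse 1 they were 125 and 129, without that of mouse 2 they were 207 and 208, and without the member sum of mouse 1 they were 285 and 301. Naming required the same direction in both mice and at least 50 CPM in each mouse on the higher side. That left 205 genes called higher and 159 called lower, of which the 15 largest changes each way were named. Their largest adjusted p was 8.88e-06.

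The genes with the largest rise in members, each given with its log2 fold change ± SE, were Vsig4 and Fcna. Vsig4, a macrophage receptor for complement C3 fragments that lies on the X chromosome at 96247203 to 96293438 (GRCm38), had 163 and 102 CPM in members of mouse 1 and mouse 2, against 14.3 and 15.3 CPM in Timd4/Lyve1-negative cells (3.06 ± 0.17). Fcna, the ficolin that starts the lectin pathway, had 237 and 249 CPM against 24.95 and 32.9 CPM (3.01 ± 0.13). The groups were far apart in both mice for each of these genes. Next came Ednrb, the type B endothelin receptor, which had 82.8 and 88.3 CPM in members, against 11.2 and 11.5 CPM (2.87 ± 0.19), and Rcn3, a calcium-binding protein of the secretory pathway, with 116 and 150 CPM against 18.7 and 29.6 CPM (2.42 ± 0.17). Ccr2-positive cells held 0 and 2 UMIs of Ednrb. In Ccr2-positive cells, which by rule held no Timd4 or Lyve1 UMI, no Vsig4 UMI was seen among 1217347. With 3 counts over that group as the floor, Vsig4 was at least 57.8-fold higher in members. Cells with both a Ccr2 UMI and at least 2 UMIs of Timd4 and Lyve1 held 30 and 3 Vsig4 UMIs (89.4 and 21.5 CPM).

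Other receptors and enzymes were among the 15. Folr2, on chromosome 7 at 101839988 to 101857194, had 1445 and 1811 CPM in members, against 306 and 470 CPM in Timd4/Lyve1-negative cells, a 4.12-fold difference (2.04 ± 0.08). Fgfr1, a fibroblast growth factor receptor, had 90.8 and 129 CPM against 17.5 and 28.2 CPM (2.22 ± 0.15). Ltc4s, the enzyme that makes leukotriene C4, had 620 and 800 CPM in members, against 90.5 and 169 CPM in Timd4/Lyve1-negative cells and 41.9 and 39.9 CPM in Ccr2-positive cells (2.42 ± 0.11 over the Timd4/Lyve1-negative). Gda, a guanine deaminase, was also called higher, at 324 and 93.3 CPM against 98.6 and 18.1 CPM, and its level in Timd4/Lyve1-negative cells of mouse 1 was above that in members of mouse 2.

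Several of the 15 encode secreted proteins. Wfdc17, a small protein with a whey acidic protein domain, had 7557 and 4847 CPM in members, against 1926 and 1367 CPM in Timd4/Lyve1-negative cells (1.85 ± 0.06). The chemokine Ccl24, which attracts eosinophils, had 383 and 949 CPM against 88.6 and 309 CPM (1.76 ± 0.11). Ccl8, another CC chemokine, had 975 and 196 CPM against 263 and 78.3 CPM (1.64 ± 0.12). Both chemokines also differed between the mice, and the groups stood apart within each mouse. Retnla, a resistin-like protein induced by type 2 cytokines, had 372 and 1619 CPM in members, against 208 and 231 CPM in Timd4/Lyve1-negative cells (1.87 ± 0.24). It was highest in Ccr2-positive cells, at 1341 and 4586 CPM, and with comparison cells of any Ccr2 count its log2 fold change was -0.03. The membrane protein Emp1 ranked sixth by size of change, at 176 and 123 CPM in members, against 36.8 and 24.8 CPM in Timd4/Lyve1-negative cells (2.23 ± 0.14). Nupr1, a stress-induced chromatin protein (1.74 ± 0.11), and S100a4 completed the 15. S100a4, a calcium-binding protein common in monocytes, had 211 and 251 CPM in members, against 62.4 and 54.4 CPM in Timd4/Lyve1-negative and 343 and 357 CPM in Ccr2-positive cells.

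The 15 genes with the largest fall in members included 4 genes of MHC class II presentation, though 3 other genes fell further. Il1b, the inflammatory cytokine interleukin 1 beta, fell most, at 22.8 and 19.6 CPM in members, against 130 and 220 CPM in Timd4/Lyve1-negative cells, a 7.96-fold difference (-2.99 ± 0.16). Gngt2, a G protein gamma subunit, was at 23.1 and 18.6 CPM against 122 and 121 CPM (-2.56 ± 0.13). Fcgr4, an activating receptor for IgG, was at 68.3 and 24.6 CPM against 281 and 161 CPM (-2.28 ± 0.13). H2-Eb1 had 1692 and 2499 CPM in members, against 8426 and 9148 CPM in Timd4/Lyve1-negative cells (-2.14 ± 0.07). Cd74 had 7447 and 11096 CPM, against 33006 and 34924 CPM (-1.94 ± 0.07). H2-Ab1 and H2-Aa, chains of the I-A molecule, had log2 fold changes of -1.94 ± 0.08 and -1.91 ± 0.08. Cx3cr1, the fractalkine receptor, was at 18.3 and 68.7 CPM against 88.6 and 219 CPM (-1.95 ± 0.14). Scimp, an adaptor of the antigen-presenting synapse, the tetraspanins Cd9 and Tspan13, the adhesion molecule Vcam1, and Stap1, Plbd1 and Glipr1 completed the 15, with log2 fold changes between -2.08 and -1.66.

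**Figure D2:**
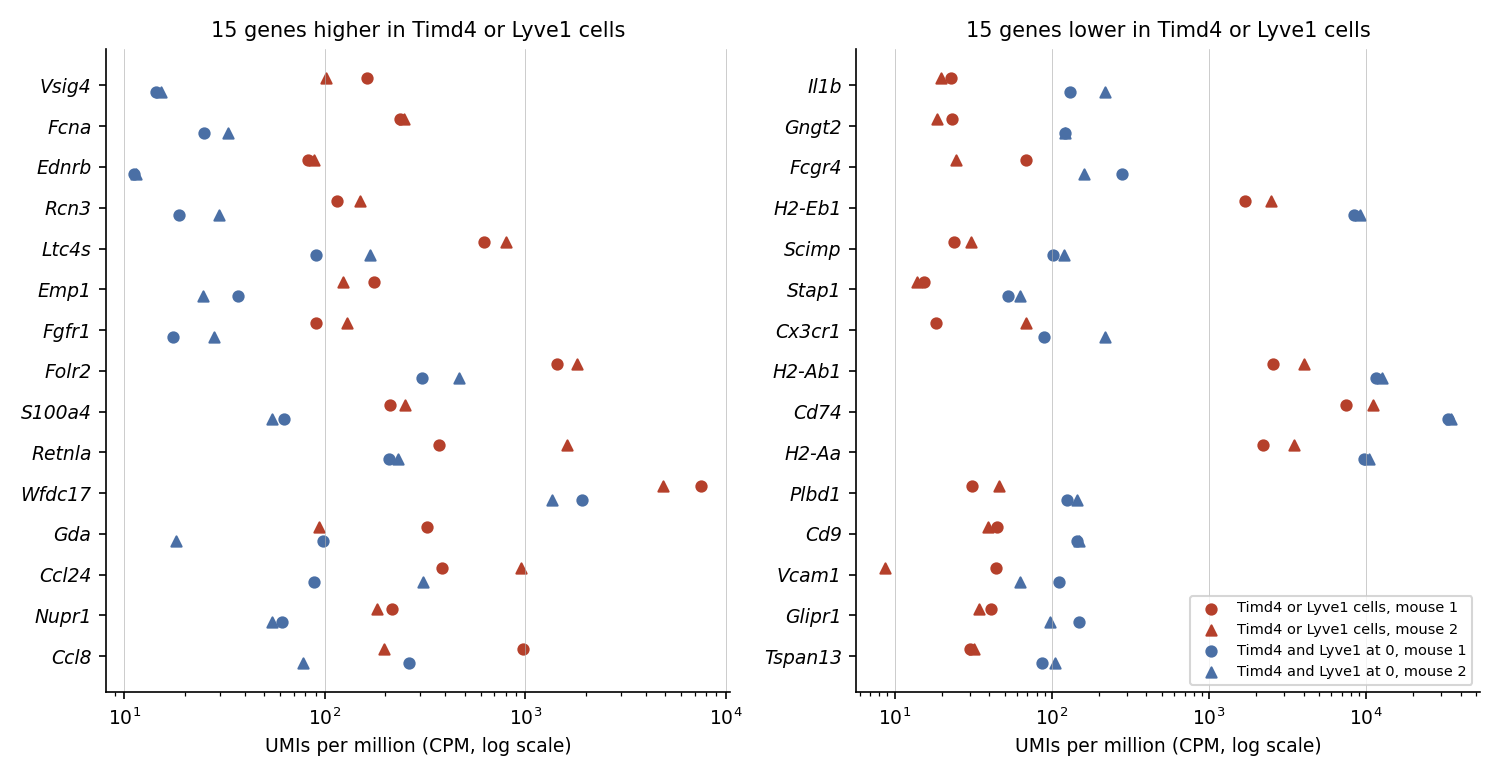
CPM (x axis, log scale) of the 15 genes with the largest rise and the 15 with the largest fall in Timd4 or Lyve1 positive macrophages (red) over Timd4/Lyve1-negative macrophages (blue), with a circle for mouse 1 and a triangle for mouse 2. Within each mouse the red and blue points stand apart for every gene shown, and naming required the same direction in both mice. Genes such as Gda, Retnla, Ccl24, Ccl8, Fcgr4, Vcam1 and Cx3cr1 also spread widely between the mice.

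Against Ccr2-positive macrophages, 566 genes were called higher in members (6.17% of those tested) and 601 lower (6.55%), or 12.7% in all, in the same fit. That was 1167 genes, whereas DESeq2 called 620 and edgeR without the mouse block 355. The comparison shares its member libraries with the one above, so the values are given side by side only. The rule set Ccr2, Timd4 and Lyve1 in both groups, so genes that follow them differ partly by rule. It left out 99 and 58 C1q macrophages with a Ccr2 UMI that also held a Timd4 or Lyve1 UMI. Of the 30 named genes, 27 had the same call, among them Folr2 (3.98 ± 0.12, with 66.5 and 135 CPM in Ccr2-positive cells), Wfdc17 (2.46 ± 0.07) and H2-Eb1 (-2.65 ± 0.08). The exceptions were S100a4 (-0.70 ± 0.10) and Retnla (-1.75 ± 0.21), which were called lower in members, and Vcam1, which was not called (-0.39 ± 0.35, adjusted p = 0.55).

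A list of 22 genes that past work ties to resident macrophages was read next, and 18 of them could be tested. In this and the lists below, genes beyond the 4 most abundant of a list were named after their values were seen. Each list count is to be read against the shares over all genes, 4.49% higher and 5.3% lower. Over Ccr2-positive cells those shares are 6.17% and 6.55%. A count near them says nothing particular about the list. Of the 18 resident genes tested, 17 were called higher in members and 0 lower, with a median log2 fold change of 1.18 against -0.01 over all genes. The one gene not called, by the fold floor alone, was the protease Ctsb, at 2834 and 2504 CPM in members, against 2072 and 1960 CPM in Timd4/Lyve1-negative cells (0.36 ± 0.06). Over Ccr2-positive cells, which by rule held no Timd4 or Lyve1 UMI, all 18 tested were called higher, with a median of 2.43. Genes that follow Timd4 and Lyve1 differ partly through that rule. This list was drawn up with earlier results of these data known, so its direction is no independent evidence. F13a1, the A chain of coagulation factor XIII, had 1626 and 1588 CPM in members, against 534 and 570 CPM in Timd4/Lyve1-negative cells (1.49 ± 0.07). Ninj1, a membrane protein of adhesion and cell rupture, had 1345 and 1112 CPM against 391 and 378 CPM (1.62 ± 0.08). Cbr2, a carbonyl reductase, had 675 and 850 CPM against 272 and 410 CPM (1.13 ± 0.08). The mannose receptor Mrc1 had 701 and 580 CPM, against 386 and 404 CPM (0.65 ± 0.08). Cd163 had 570 and 598 CPM against 284 and 332 CPM, with 69.4 and 98.9 CPM in Ccr2-positive cells (0.88 ± 0.08 over the Timd4/Lyve1-negative).

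Uptake genes moved in part. Of 15 tested genes for apoptotic cell uptake, 5 were called higher and 2 lower. The bridging molecule Gas6, which links phosphatidylserine to receptor kinases, had 575 and 631 CPM in members, against 249 and 309 CPM in Timd4/Lyve1-negative cells (1.07 ± 0.10). Its partner Pros1 (0.77 ± 0.14), the scavenger receptors Cd36 (0.59 ± 0.11) and Stab1 (0.57 ± 0.07) and the endocytic receptor Lrp1 (0.53 ± 0.11) were higher too. Axl, a receptor kinase for Gas6, was lower, at 37.7 and 54.1 CPM against 110 and 138 CPM (-1.50 ± 0.12), as was the integrin chain Itgb5 (-0.72 ± 0.10). Of 18 scavenger and lectin receptors tested, 8 were called higher, among them the collectin Colec12 (1.62 ± 0.17) and the lectin Clec10a (1.42 ± 0.16), and 2 were called lower. Cd14, the lipopolysaccharide co-receptor, was one of those lower, at 900 and 498 CPM against 1491 and 893 CPM (-0.83 ± 0.06).

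Iron handling showed 6 genes higher and 1 lower of 17 tested, with a median log2 fold change of 0.55. Haem oxygenase Hmox1 had 341 and 262 CPM in members, against 236 and 153 CPM in Timd4/Lyve1-negative cells (0.60 ± 0.09). Blvrb, which acts downstream of it on biliverdin, had 738 and 827 CPM against 440 and 600 CPM (0.55 ± 0.08). The iron exporter Slc40a1 had 30.9 and 129 CPM against 13.7 and 72.1 CPM (0.86 ± 0.14). The lysosomal metal transporter Slc11a1 was lower (-0.55 ± 0.10). The ferritin chains were not called, with Ftl1 at 0.09 ± 0.05 and Fth1 at -0.03 ± 0.05.

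The MHC class II list was mostly lower. Of 13 tested genes, 9 were called lower and 0 higher, with a median log2 fold change of -1.48. Besides the chains named above, these were the transactivator Ciita, at 4.82 and 14.3 CPM in members against 21.2 and 43.0 CPM in Timd4/Lyve1-negative cells (-1.87 ± 0.23), the peptide-loading chains H2-DMa (-1.36 ± 0.09), H2-DMb1 (-1.61 ± 0.09) and H2-DMb2 (-1.48 ± 0.37), and the co-stimulator Cd86 (-0.75 ± 0.10). Of 12 MHC class I genes tested, 4 were called lower and 0 higher, namely Tap1 and the closely similar H2-Q4, H2-Q6 and H2-Q7, whose reads the counting may split between copies. B2m, the class I light chain, had 4309 and 4599 CPM in members, against 4452 and 4541 CPM (-0.06 ± 0.05).

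Class II levels were spread widely inside the member population. The summed H2-Aa, H2-Ab1 and H2-Eb1 level of a cell had a median of 807 CPM in members of mouse 1 and 3441 CPM in mouse 2, against 31063 and 33865 CPM in Timd4/Lyve1-negative cells and 43377 and 45891 CPM in Ccr2-positive cells. The upper quartile of members began at 7621 and 16663 CPM. After thinning to 2000 UMIs, 26.8% and 12.4% of members held no UMI of these genes, against 5.72% and 2.96% of Timd4/Lyve1-negative cells. At the other end, 22.0% and 35.2% of members held 20 or more, against 79.4% and 80.5% of Timd4/Lyve1-negative and 98.8% and 98.6% of Ccr2-positive cells. Selection by Timd4 and Lyve1 thus gave a mixed population for class II, with a larger share of high cells in mouse 2 than in mouse 1, a difference that was not tested.

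**Figure D3:**
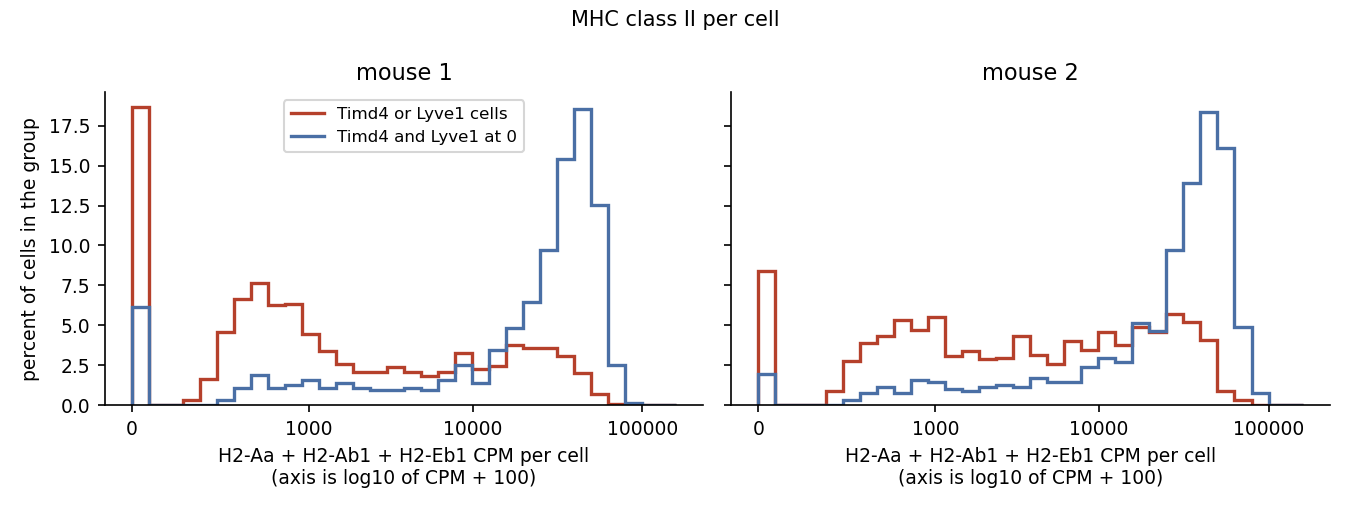
Share of cells (y axis, percent of the group) by their summed H2-Aa, H2-Ab1 and H2-Eb1 level (x axis, CPM, on the log10 of CPM + 100 scale) for Timd4 or Lyve1 positive macrophages (red) and Timd4/Lyve1-negative macrophages (blue) of each mouse. Members spread from 0 to the levels of the other group, whose medians are 31063 and 33865 CPM.

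Class II genes share promoter elements bound by the factors that recruit Ciita, one of which is the Y box, an inverted CCAAT element. Promoters of 2 of the lowered chains are shown because they carry that element. H2-Ab1 was looked up too, but no window was found for it, so it was not searched. The windows run over the 250 bases before the RefSeq gene start on GRCm38.p6, written 5′ to 3′ along the gene, with the motif CTGATTGG in capitals. A search on both strands (reverse complement CCAATCAG) found it 51 bases before the start of H2-Aa and 62 bases before that of H2-Eb1. It was present in 1258 of 32851 such windows (3.83%), and a match is a description of letters, not of a bound site.
H2-Aa, chr17:34287824-34288073, strand minus: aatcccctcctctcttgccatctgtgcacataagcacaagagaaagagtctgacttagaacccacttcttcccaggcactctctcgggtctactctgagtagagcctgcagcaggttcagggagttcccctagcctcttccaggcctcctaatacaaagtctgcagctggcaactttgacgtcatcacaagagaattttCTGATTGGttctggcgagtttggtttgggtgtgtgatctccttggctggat
H2-Eb1, chr17:34305617-34305866, strand plus: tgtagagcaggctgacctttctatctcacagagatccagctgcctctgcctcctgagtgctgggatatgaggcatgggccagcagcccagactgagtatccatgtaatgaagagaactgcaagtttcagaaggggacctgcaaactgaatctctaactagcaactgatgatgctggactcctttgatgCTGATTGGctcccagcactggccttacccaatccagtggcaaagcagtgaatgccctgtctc

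Chemokines split by member. Of 20 tested, 8 were called higher and 5 lower in members. Pf4, platelet factor 4, had 5308 and 6827 CPM in members, against 2648 and 3667 CPM in Timd4/Lyve1-negative cells (0.90 ± 0.06). Ccl6 had 5757 and 3363 CPM against 2077 and 1129 CPM (1.47 ± 0.08), and Ccl9 had 3300 and 1982 CPM against 1560 and 789 CPM (1.15 ± 0.07). The monocyte attractants Ccl2 (1.07 ± 0.13) and Ccl7 (1.16 ± 0.15) and the B cell attractant Cxcl13 (1.20 ± 0.21) were higher as well. Lower were Cxcl16, at 186 and 193 CPM against 387 and 455 CPM (-1.20 ± 0.08), the interferon-gamma target Cxcl9 (-2.04 ± 0.29), the T cell attractant Ccl5 (-1.19 ± 0.19), Cxcl2 (-0.80 ± 0.12) and Cxcl14 (-0.83 ± 0.23). Of 11 chemokine receptors and migration genes tested, the integrin Itgam was called higher (0.53 ± 0.12) and 3 were lower. Among those, Itgax, the CD11c integrin chain, was at 0.499 and 0.664 CPM in members, against 11.2 and 7.16 CPM.

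Of 15 complement genes tested, 6 were called higher and 2 lower. Properdin, Cfp, which stabilises the alternative pathway convertase, had 418 and 445 CPM in members, against 189 and 177 CPM in Timd4/Lyve1-negative cells (1.19 ± 0.08). C4b (1.61 ± 0.12) and factor B, Cfb, at 14.8 and 9.96 CPM against 0.624 and 1.43 CPM, were higher too. Among 10 Fc receptors tested, the neonatal receptor Fcgrt, which recycles IgG, was the only one called higher, at 936 and 1143 CPM against 357 and 515 CPM (1.22 ± 0.08), and Fcgr4 the only one lower. Over all genes, 4.49% were called higher and 5.3% lower.

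Of 20 cytokines and growth factors tested, 5 were called higher and 3 lower. Igf1 had 201 and 352 CPM in members, against 110 and 241 CPM in Timd4/Lyve1-negative cells (0.63 ± 0.09). Progranulin, Grn, had 999 and 1063 CPM against 634 and 670 CPM (0.62 ± 0.07). Pdgfc, a platelet-derived growth factor (1.41 ± 0.21), and Ecm1 (1.22 ± 0.12) were higher too. Of 21 cytokine receptors tested, 0 were called higher and 8 lower. The TGF-beta receptor Tgfbr1 was at 27.3 and 33.5 CPM in members, against 90.5 and 84.0 CPM (-1.59 ± 0.14). Each of the 4 interferon receptor chains Ifngr1, Ifngr2, Ifnar1 and Ifnar2 was lower, with log2 fold changes between -0.62 and -0.56, as were Il10ra, Csf2ra and Csf2rb. Over Ccr2-positive cells, 4 of the receptors were called higher and 6 lower. Csf1r was not called, at 777 and 934 CPM against 700 and 867 CPM (0.08 ± 0.07).

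Lipid genes went both ways, with 4 of 16 tested called higher and 6 lower. Pltp, the phospholipid transfer protein, had 630 and 814 CPM in members, against 276 and 418 CPM in Timd4/Lyve1-negative cells (1.02 ± 0.08). The lipid droplet coat Plin2 (0.63 ± 0.09), the lipid receptor Trem2 (0.64 ± 0.10) and the cholesterol exporter Abca1 (0.56 ± 0.09) were higher. The related exporter Abcg1 (-1.15 ± 0.24), the nuclear receptor Pparg (-1.41 ± 0.38), Lpl (-0.62 ± 0.15), Fabp5 (-0.62 ± 0.18) and Ch25h (-0.85 ± 0.22) were lower, beside Cd9. Apoe was not called, at 31806 and 28458 CPM against 30867 and 31056 CPM.

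Of 22 lysosomal genes tested, 2 were called higher and 2 lower, against 4.49% and 5.3% of all genes. The proteases Ctsd and Ctsl were those called higher (0.52 ± 0.09 and 0.52 ± 0.10). Ctss, the cathepsin that trims the invariant chain for class II loading, was called lower and had 1281 and 1295 CPM in members, against 2131 and 1845 CPM (-0.67 ± 0.06). For hyaluronan and matrix handling, 3 of 14 tested were called higher and 3 lower. Hyal2, a hyaluronidase, had 44.7 and 32.2 CPM in members, against 19.96 and 15.3 CPM in Timd4/Lyve1-negative cells (1.07 ± 0.18). Timp2, an inhibitor of matrix metalloproteinases, had 1154 and 1193 CPM against 575 and 651 CPM (0.90 ± 0.07). Mmp12, the macrophage elastase, was at 0.499 and 0.332 CPM against 19.96 and 30.6 CPM. Mmp13 was at 2.99 and 14.3 CPM, against 16.8 and 69.2 CPM (-2.37 ± 0.21). Mmp14 was also called lower, at 0.997 and 1.33 CPM against 11.2 and 1.43 CPM, with most of its difference in mouse 1. Of the 10 folate and one-carbon genes tested, Folr2 was the only one called, near the share of all genes called in either direction (9.79%).

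Of 26 macrophage transcription factors tested, 4 were called higher and 5 lower. Klf2 had 1044 and 1601 CPM in members, against 467 and 692 CPM in Timd4/Lyve1-negative cells (1.14 ± 0.06), and Klf4 had 327 and 238 CPM against 108 and 137 CPM (1.14 ± 0.13). Hes1, a Notch target (1.08 ± 0.14), and the nuclear receptor Rxra (0.97 ± 0.23) were higher. Irf8 (-0.79 ± 0.09), Irf5 (-0.55 ± 0.09), Id2 (-1.15 ± 0.13), Runx3 (-0.91 ± 0.20) and Nr4a2 (-1.13 ± 0.35) were lower. Maf was not called by the fold floor, at 657 and 643 CPM against 468 and 460 CPM (0.44 ± 0.07). Klf2 and Klf4 also stand among 24 immediate early and heat shock genes, which respond to dissociation, where 4 were called higher and 2 lower. The other 2 higher were Hspb1 and Hspa1b, and Fos, lower in members, was not called by the fold floor alone (-0.42 ± 0.06). Of 20 genes of toll-like and inflammasome sensing tested, Ly96 was the only one called higher (0.60 ± 0.11), near the share over all genes (4.49%). Cd14, Nlrp3 and Tnip3 were called lower, against 5.3% of all genes.

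Of 18 monocyte genes tested, 4 were called higher and 4 lower over Timd4/Lyve1-negative cells, while 0 were called higher and 13 lower over Ccr2-positive cells. Ccr2-positive cells were chosen by Ccr2, so monocyte genes that follow it differ partly by rule. The 4 higher were S100a4, S100a6 (628 and 567 CPM in members, against 236 and 158 CPM, 1.58 ± 0.09), S100a10 and Ifitm6. In mouse 1, the 4 neutrophil markers summed to 679 CPM in members, against 218 CPM in Timd4/Lyve1-negative and 110 CPM in Ccr2-positive cells. In mouse 2 they summed to 17.3, 22.0 and 20.9 CPM in those groups. Each of those markers had at least 1 UMI in members of both mice. S100a10 stood at 1317 and 1026 CPM in members, against 520 and 460 CPM in Timd4/Lyve1-negative cells. The part of neutrophil RNA in the S100 values was not tested. Monocyte markers summed to 14.0 and 3.98 CPM in members, against 292 and 87.5 CPM in Ccr2-positive cells. Of 16 cell cycle genes tested, 0 were called higher and 3 lower, among them Mki67 at 12.1 and 7.30 CPM in members against 22.5 and 19.1 CPM (-1.08 ± 0.28).

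**Figure D4:**
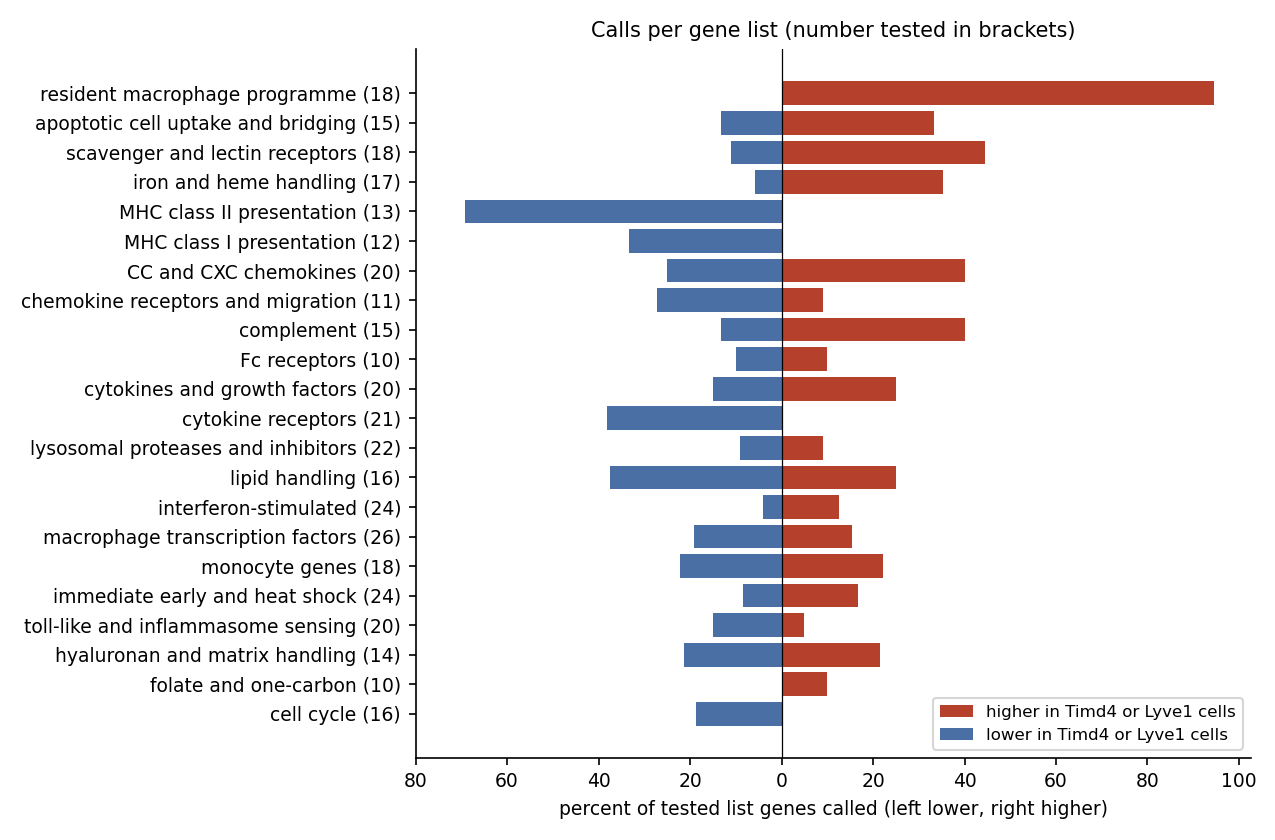
Percent of the tested genes of each list (x axis) that were called higher (red, to the right) or lower (blue, to the left) in Timd4 or Lyve1 positive macrophages over Timd4/Lyve1-negative macrophages, with the number tested in brackets. The resident list has 17 of 18 to the right, and class II presentation 9 of 13 to the left, against 4.49% and 5.3% of all genes.

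Of 24 interferon-stimulated genes tested, 3 were called higher in members over Timd4/Lyve1-negative cells (Ifi27l2a, Ifitm3 and Ifit1). Ifi27l2a had 7047 and 3724 CPM in members, against 3296 and 2440 CPM (0.82 ± 0.09). Isg15, a ubiquitin-like protein that interferon induces, was not called, at 121 and 104 CPM against 117 and 88.3 CPM. The same list was read within the members, between cells with and without a Timd4 UMI. There 4 of its 24 tested genes were called higher with Timd4, 0 lower, and 20 were not called.

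Members with a Timd4 UMI numbered 578 in mouse 1 and 430 in mouse 2, and those without 1270 and 545. Of 8693 genes tested, 12 were called higher in Timd4-detected members (0.138%) and 0 lower, while 687 had an unadjusted p under 0.05 in edgeR's test. Timd4-detected cells were somewhat deeper, with medians of 3275.5 and 3173.5 UMIs against 2918 and 2857. Of the called genes, 4 met the rule for naming, and all 4 are interferon-stimulated. Isg15 had 172 and 139 CPM with Timd4, against 93.8 and 72.1 CPM without (0.90 ± 0.09, adjusted p = 2.87e-14). Ifit1 and Ifit3, which encode RNA-sensing antiviral proteins, had 50.9 and 59.9 CPM against 29.3 and 29.5 CPM (0.89 ± 0.17), and 65.9 and 69.1 CPM against 35.7 and 38.9 CPM (0.87 ± 0.14). Irf7, the interferon-induced transcription factor, had 106 and 83.2 CPM against 77.9 and 42.0 CPM (0.59 ± 0.11). In each mouse the Timd4-detected cells were higher for all 4 genes, which the naming rule required. The fit had 1 residual degree of freedom. DESeq2 called 0 genes, with Isg15 at a log2 fold change of 0.92 and an adjusted p of 0.166, and edgeR without the mouse block also called 0.

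**Figure D5:**
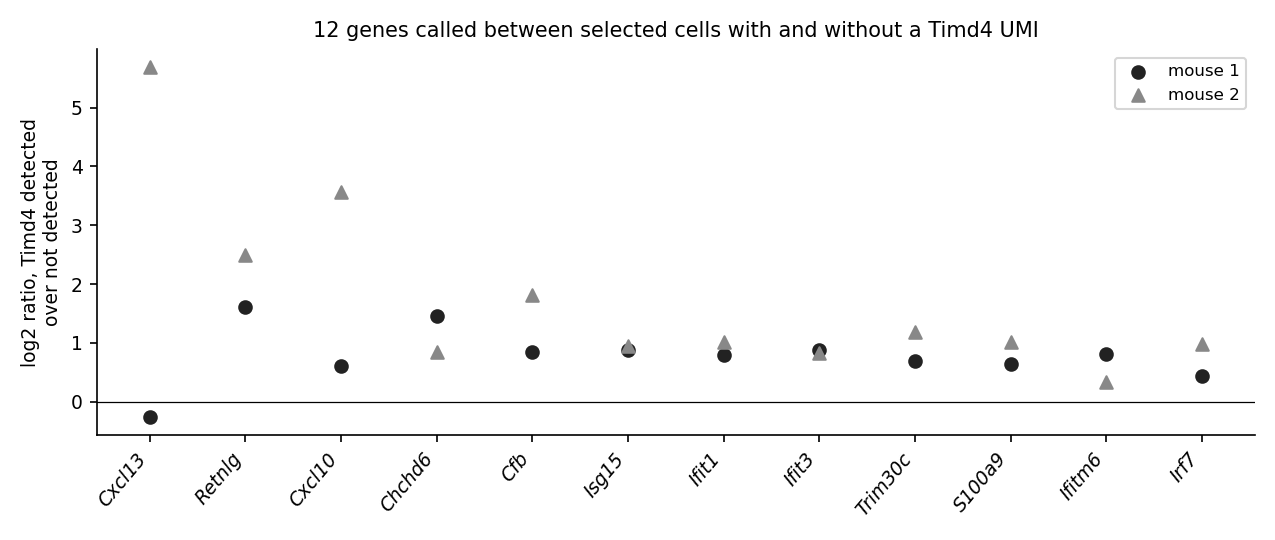
Log2 ratio (y axis) of Timd4-detected over Timd4-undetected members in mouse 1 (circles) and mouse 2 (triangles) for the 12 genes called between them (x axis). Isg15, Ifit1 and Ifit3 lie close together in both mice, whereas Cxcl13 is opposite between them and Cxcl10 rests mainly on mouse 2.

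The other 8 called genes, named here after their values were seen, were Cxcl10, Cxcl13, Trim30c, Ifitm6, Chchd6, Cfb, S100a9 and Retnlg. Cxcl13 had 17.9 and 113 CPM with Timd4, against 21.8 and 1.88 CPM without, so the mice ran in opposite directions. S100a9 and Retnlg are neutrophil genes. S100a9 had 334 and 2.82 CPM with Timd4, against 215 and 1.25 CPM without, and Retnlg 142 and 1.41 CPM, against 46.3 and 0 CPM, so their values came almost wholly from mouse 1. Per-cell class II medians were 806 and 3739 CPM with Timd4, against 809 and 3257 CPM without, and no class II gene was among the calls. No gene of the resident list was among them either.

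Promoters of Isg15, Ifit1 and Ifit3 are shown because they carry the element through which interferon-activated factors act, the ISRE. The search was for TTTC, any bases at 2 positions, and TTTC again, or on the other strand GAAA, 2 free positions and GAAA, and 978 of the 32851 windows held it (2.98%). Capitals mark the matches. Isg15 had 3 overlapping matches that began 78 to 66 bases before the start, Ifit1 had 2 (104 and 85 bases before) and Ifit3 had 2 (156 and 122 bases before). The Irf7 window held 0 matches, which says only that these letters are not in it.
Isg15, chr4:156200819-156201068, strand minus: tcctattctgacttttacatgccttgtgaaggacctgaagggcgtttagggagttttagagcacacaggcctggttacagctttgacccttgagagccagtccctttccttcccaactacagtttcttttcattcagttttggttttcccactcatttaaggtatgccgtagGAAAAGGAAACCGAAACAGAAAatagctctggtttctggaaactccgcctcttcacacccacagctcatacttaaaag
Ifit1, chr19:34640639-34640888, strand plus: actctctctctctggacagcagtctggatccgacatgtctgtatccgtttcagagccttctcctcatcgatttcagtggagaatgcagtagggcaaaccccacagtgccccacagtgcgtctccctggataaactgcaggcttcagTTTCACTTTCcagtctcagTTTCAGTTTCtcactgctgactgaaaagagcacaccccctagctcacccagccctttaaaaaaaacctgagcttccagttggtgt
Ifit3, chr19:34583279-34583528, strand plus: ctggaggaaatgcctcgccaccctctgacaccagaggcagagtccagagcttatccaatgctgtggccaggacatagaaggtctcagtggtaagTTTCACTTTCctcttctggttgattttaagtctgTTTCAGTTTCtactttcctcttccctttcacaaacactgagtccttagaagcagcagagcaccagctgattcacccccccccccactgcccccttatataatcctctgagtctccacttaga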

How the data were processed

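Per the labels, ventricular non-myocytes of 2 mice were sequenced as 1 droplet library each. The submitters' processing notes name the mouse build mm10, Cell Ranger 2.2.0 and FastQC, the last without a version. The deposited values are raw UMI counts per gene and barcode over 27998 genes, with no normalization by the authors. How the authors chose barcodes is not given in the sources used here.

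Cells were picked by the thresholds in the report, summed per mouse and group, and tested with the quasi-likelihood F test of edgeR 4.0.16, run in R 4.3.3, after the filterByExpr filter and TMM scaling. Members, Timd4/Lyve1-negative and Ccr2-positive cells shared 1 fit. Mouse was a replicate block because all groups came from the same 2 animals. Summed UMIs per mouse ran from 3012825 to 6016011 in members, 1602990 to 2094631 in Timd4/Lyve1-negative and 525954 to 691393 in Ccr2-positive cells. Doublets were kept. Scrublet (scanpy 1.11.5) called 5.62% and 4.11% of cells, of which 50 and 18 were members, and removing them was an alternative, beside other scaling, filter, tool, block, depth, C1q, fold and threshold settings. The comparison scripts were tested on simulated data. Intervals are exact (Clopper-Pearson) and cover counting error only. A count of 0 was set to 3 counts for a lower bound. Named genes followed the rule in the report, with 5 each way asked for in the Timd4 comparison, up to 4 per list by level, and the marker genes. Further list genes were named after their values were seen, and some genes of the rule are not printed. The members and the 22 lists were chosen with earlier results of these data known. Of 467 list genes, 462 were found, and the remaining genes were not analysed here. Gene positions are from GENCODE M21 on GRCm38. Promoter sequences are from RefSeq on GRCm38.p6, where 6 of 7 genes looked up were matched and H2-Ab1 was not. A few genes of the lists were tested but are not reported here by name.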

Additional observations from a re-analysis of the deposited data

How the results depend on the processing

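The Ccr2-positive sums, at 691393 and 525954 UMIs, hold few UMIs of genes under 50 CPM, which limits those comparisons. The calls of 412 genes higher and 486 lower over Timd4/Lyve1-negative cells, and of 1167 over Ccr2-positive cells, stayed within 1.5 times under other scaling, no low-count filter, doublet removal, 2000 to 8000 UMIs, C1q of at least 30 UMIs, cardiomyocyte-transcript removal, a Timd4 plus Lyve1 threshold of 3, no fold floor and a fit of only the groups compared, and the first 2 counts also with comparison cells of any Ccr2 count. DESeq2 called 144, 164 and 620 (143 and 164 of the first 2 were shared), and an absolute log2 floor of 1 gave 140, 202 and 663. Without the replicate block the counts were 48, 61 and 355, and 23 of the 30 named genes kept their call. In the Timd4 comparison, 12 calls became 6 with other scaling, 4 at C1q of at least 30 UMIs (where Irf7 was lost, adjusted p = 0.0758), 7 without cells carrying cardiomyocyte transcripts, 5 at a floor of 1, 36 with none, and 0 both with DESeq2 and without the replicate block; the cause was not tested. Retnla alone reversed, at -0.0323 (adjusted p = 0.877) with comparison cells of any Ccr2 count. Leaving out single summed libraries, an alternative added after the data were seen, gave 125 to 494 higher, 129 to 555 lower and 789 to 1137 over Ccr2-positive cells. The lowest counts, 125 and 129, came without the Timd4/Lyve1-negative cells of mouse 1. Without those of mouse 2 they were 207 and 208, and without members of mouse 1 they were 285 and 301. These fits hold fewer libraries, and the 30 named genes kept their call in each. DESeq2 lost the calls of Retnla and Ccl8. Leaving out a whole mouse leaves no residual degrees of freedom and gave no counts.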

Other observations

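Cells with both a Ccr2 UMI and at least 2 UMIs of Timd4 and Lyve1 fell outside every group above. They numbered 68 in mouse 1 and 31 in mouse 2, at median depths of 4330 and 4125 UMIs. Folr2 stood at 983 and 990 CPM in them, Cd163 at 355 and 495 CPM, Cd74 at 20042 and 22027 CPM and Retnla at 1082 and 1298 CPM. The monocyte gene Ly6c2 had 7 and 0 UMIs. Deeper cells and doublets are more likely to hold both genes, and no test was run on so few cells.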
